A study of Rattus norvegicus with 11 samples.

Results

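The transcripts described here are RefSeq predicted non-coding RNAs, which carry an accession beginning with XR_. They were taken as every probe of the array that was not a control and whose systematic name begins with XR_. This gave 1702 of the 24684 probes of the array, printed on 5134 of its 42136 non-control spots. All 1702 were printed more than once, 1698 of them on 3 spots and 4 on 10 spots. The study placed complete Freund's adjuvant (CFA), an emulsion of killed mycobacteria that gives a lasting local inflammation, under the skin of 1 whisker pad of male Wistar rats (50 µl at 1 mg/ml). The trigeminal ganglia (TRG), where the sensory neurons that serve the face have their somata, were taken from each side on day 7. RNA of each ganglion was hybridised to a single-colour rat lncRNA array, and 11 arrays were analysed: 6 of the CFA side (rats 1, 2, 3, 5, 6 and 8) and 5 of the contralateral side (rats 1, 2, 3, 5 and 6). The contralateral ganglia came from the same injected animals, so no ganglion of an uninjected rat stands on either side of the comparison.

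An XR_ accession marks a model that a genome annotation pipeline predicted from aligned transcripts and assembled sequence, with no coding sequence assigned to it. Such models include long non-coding RNAs, transcripts of pseudogenes and fragments of longer transcripts, and many are later merged, renamed or withdrawn. Transcripts of a pseudogene can be close in sequence to those of a working parent gene, so that a probe for one may also bind the other. Long non-coding RNAs as a class are known for lower abundance and tighter restriction to cell types than mRNA, and some act on chromatin, on splicing or as binding partners of proteins and small RNAs. The array design was built on the rat assembly rn4. None of the 1702 accessions (0) matched the RefSeq table of the assembly GRCr8 used here, against 14274 of the 15321 mRNA accessions, so each XR_ transcript is given by its accession alone, with no gene name, position or sequence.

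The arrays lay on 5 slides (a slide is taken as the arrays that share a scan time) scanned on 3 days, and only slide 2 held arrays of each side. Slide 1 gave contralateral rat 3, slide 2 gave CFA rat 1 with contralateral rats 5 and 6, and slide 3 gave contralateral rats 1 and 2. Slide 4 gave CFA rats 2 and 3, and slide 5 gave CFA rats 5, 6 and 8. Slides 1, 2 and 3 were scanned on the first day, slide 4 on the second and slide 5 on the third. Every contralateral array was thus scanned on the first day, and of the CFA arrays only that of rat 1, so side went largely with scan day. No saturated spot was found (0), and 68.9% to 82.8% of spots per array were well above background. The tissue label fitted its markers, with 11 of 12 measured sensory neuron genes well above background on every array and a mean log2 signal of 13.3 to 13.6 over that list. Markers of the anterior pituitary, which lies beside the ganglion, differed widely between arrays, from 5.60 to 12.0 on the CFA side and from 5.68 to 11.3 on the contralateral side, as did those of neutrophils (9.16 to 12.8 and 8.85 to 12.3). None of the 8 measured pituitary genes (0) and none of the 3 neutrophil genes (0) passed the study's threshold between sides. The part of these lists in the values below was not tested. In whole ganglia, fewer cells of a type and less RNA per cell cannot be told apart.

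The XR_ transcripts were dim as a class. Levels here are log2 of the background-corrected signal after quantile normalisation, averaged over the spots of a probe. They reflect both the amount of RNA and how well each probe binds, so only distributions over many probes are compared. The median XR_ probe had a level of 5.80 over the 11 arrays, with quartiles of 3.31 and 9.48, against 7.46 over all probes and 9.40 over mRNA probes. The classes nearest to it were the rat counterparts of mouse lncRNAs (names beginning with MRAK, 3588 probes), with a median of 5.06, and transcripts of ultraconserved regions (names beginning with uc., 962 probes), with a median of 2.94. When all probes were divided into 3 equal parts by level, 742 XR_ probes (43.6%) fell in the dim part, 591 (34.7%) in the middle part and 369 (21.7%) in the bright part.

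**Figure D1:**
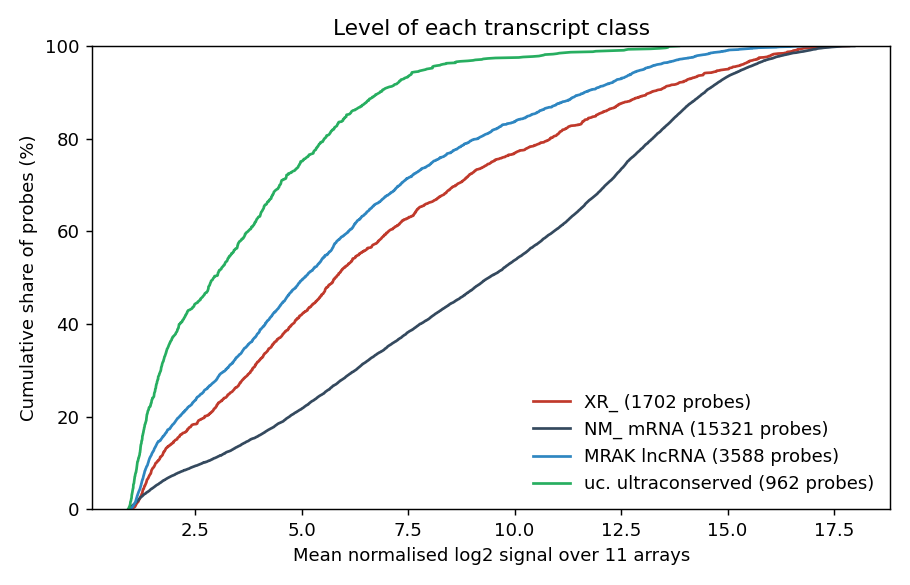
Cumulative share of probes (vertical axis, percent) against the mean normalised log2 signal over the 11 arrays (horizontal axis), 1 line for each of 4 transcript classes. The XR_ line lies between the MRAK and mRNA lines, with medians of 5.80, 5.06 and 9.40, and its upper end reaches the levels of bright mRNA probes.

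The class had a long upper tail, since its 90th percentile was 13.2, and 15 XR_ probes were among the 246 probes that form the brightest hundredth of the array. The 8 brightest had mean levels between 17.00 and 17.85. XR_006879, the brightest, had levels of 17.93, 17.93, 17.86, 17.72 and 17.68 on contralateral rats 1, 2, 3, 5 and 6, and from 17.75 to 17.99 (median 17.88) on the CFA side. The groups overlapped, and the difference was 0.05 ± 0.08 (SE) on the log2 scale. XR_008756, XR_007871, XR_006305, XR_005936, XR_006207, XR_005994 and XR_007848 followed, and none of the 8 (0) passed the study's threshold, with differences between -0.16 and 0.09. XR_006305 varied most among them, from 16.64 on CFA rat 8 to 17.45 on CFA rat 2.

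Detection followed the same order as level. A probe was taken as detected on an array when more than 50% of its spots were flagged well above background by the scanner software. Of the 1702 XR_ probes, 1077 (63.3%) were detected on all 11 arrays, 250 (14.7%) on none, and 375 (22.0%) on some. Detection on every array was more frequent over all probes (70.9%) and over mRNA (79.6%), and less frequent over MRAK (55.9%) and uc. probes (27.3%). On single arrays the detected share of XR_ probes ran from 66.9% on CFA rat 2 to 81.0% on contralateral rat 2. The ranges of the sides overlapped, with a median of 74.1% on the CFA side and of 79.2% on the contralateral side. The share over all probes went the same way, from 73.4% on CFA rat 2 to 85.9% on contralateral rat 2. Its medians were 80.2% on the CFA side and 84.4% on the contralateral side.

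The summed processed signal of XR_ spots made up 10.1% to 14.7% of the signal of an array, and this share went with the slide. It was 10.1% and 10.3% on slide 3, 10.9% to 11.4% on slide 5, 12.5% on slide 1, 12.9% to 13.5% on slide 2, and 14.5% and 14.7% on slide 4. The CFA side thus held both the highest values, on slide 4, and the low values of slide 5.

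The median XR_ probe spread more between arrays of the same side than that of mRNA or MRAK, and less than that of uc. probes. Its pooled within-group SD was 0.408 on the log2 scale. This median was 0.308 over all probes, 0.269 over mRNA, 0.334 over MRAK and 0.479 over uc. probes. Dim signals scatter more than bright ones, so the spread was also read within the parts by level. In the dim part, where most mRNA probes have only 1 spot to average, the XR_ median (0.403) lay below that of all probes (0.440). In the middle part it was 0.452 against 0.354. In the bright part it was 0.300 against 0.157 over all probes, 0.153 over mRNA and 0.171 over MRAK probes, which have 3 spots as most XR_ probes do. For uc. probes, which have 1 spot, the medians were 0.502 in the dim, 0.394 in the middle and 0.447 in the bright part (22 probes). The bright XR_ median stayed between 0.286 and 0.332 and the bright mRNA median between 0.144 and 0.191 under 9 other ways of processing the spots.

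**Figure D2:**
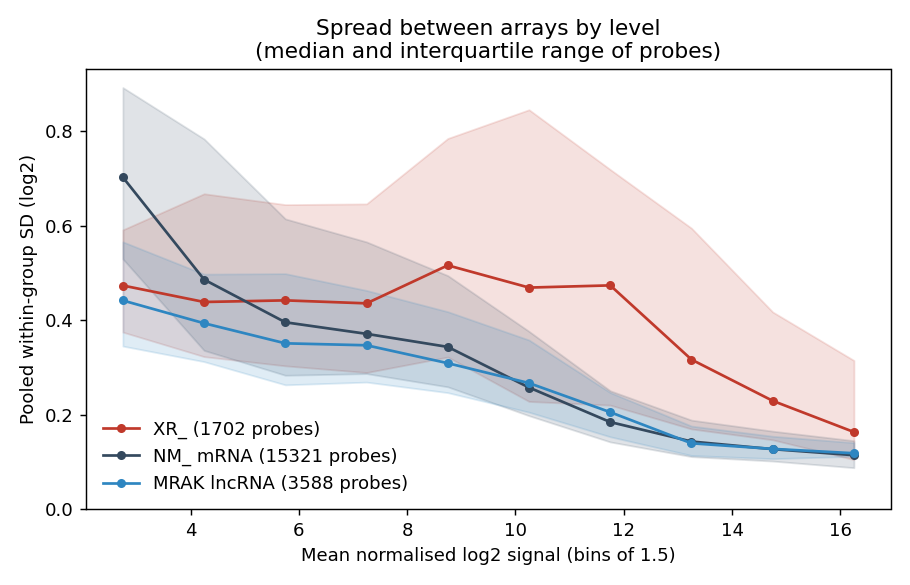
Pooled within-group SD on the log2 scale (vertical axis) against mean normalised log2 signal in bins of 1.5 (horizontal axis), for XR_, mRNA and MRAK probes, with points for the median probe and bands for the interquartile range. The mRNA and MRAK lines fall together as signal rises, while the XR_ line stays above them from the middle levels upwards, with a bright-part median of 0.300 against 0.153 for mRNA.

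Among probes detected on every array, the largest spread belonged to XR_008336, XR_008474, XR_005441 and XR_008750, with SDs of 1.81, 1.78, 1.69 and 1.57. XR_008336 had levels of 4.44, 4.30, 4.74, 5.00 and 4.90 on contralateral rats 1, 2, 3, 5 and 6, and from 4.73 to 9.91 (median 5.16) on the CFA side. Its levels of 9.91 and 9.40 stood on CFA rats 2 and 3, which share slide 4, and the other 9 arrays lay between 4.30 and 5.24. XR_005441 was higher on the CFA side by 2.05 ± 0.93 (SE), the largest positive difference of the 4. On the contralateral side its levels were 3.50, 4.68, 3.71, 4.93 and 6.71, its CFA levels ran from 4.01 to 9.10 (median 7.12), and the groups overlapped (limma, unadjusted p = 0.0507, adjusted p = 0.465). With slide as a block the difference was -1.81, and under the block by scan day -0.70. The smallest spread belonged to XR_006361, XR_008991, XR_005623 and XR_007305, with SDs of 0.0451, 0.0520, 0.0559 and 0.0597 and mean levels of 16.08, 13.08, 16.06 and 16.65. XR_008991, at a level well below the top of the scale, stayed between 12.97 and 13.19 on all 11 arrays.

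Much of the spread of the XR_ probes went with the slide. Over the 1075 XR_ probes detected on every array and with a value on each, differences between the 5 slides held a median of 81.1% of the variance over arrays. The same share was 79.0% over uc. probes, 71.5% over MRAK, 65.6% over mRNA and 67.7% over all probes. Differences between the sides held a median of 9.01%, against 9.78% over all probes. A split into 5 slides takes up more variance by itself than a split into 2 sides, so the slide and side shares are not directly comparable. Since a slide holds only 1 to 3 ganglia, scanned on the same day, these shares do not separate the slide from its ganglia or from the scan day. Rats 1, 2, 3, 5 and 6 each had their ganglia on different slides, but the shares were not split by rat.

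Slides 3 and 4 each held arrays of 1 side. On slide 4 (CFA rats 2 and 3), 366 of the 1075 XR_ probes (34.0%) were at least 2-fold above their level on slide 3 (contralateral rats 1 and 2), and 14 were at least 2-fold below it. The same difference was reached by 4.11% of mRNA probes, 7.98% of MRAK probes, 12.2% of uc. probes and 6.84% of all probes detected on every array. Between the CFA slides themselves, 261 XR_ probes (24.3%) were at least 2-fold higher on slide 4 than on slide 5 (CFA rats 5, 6 and 8), against 3.20% of all probes. Slide was confounded with scan day in each of these comparisons. Slides 4 and 5 also held different animals, and slides 3 and 4, which shared only rat 2, were of different sides.

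The 366 probes were chosen by the difference between slides 4 and 3, which had a median of 1.96 on the log2 scale, so the levels on those slides are a description. On arrays the choice did not use, their median deviation from each probe's own mean was -0.16 on slide 1, between 0.34 and 0.40 on the 3 arrays of slide 2, and between -0.50 and -0.27 on slide 5. The CFA array of slide 2 lay with the contralateral arrays of its slide. The median CFA over contralateral difference there was -0.05, 162 of the 366 were positive, and 10 were over 2-fold either way. The other 709 XR_ probes detected on every array had median deviations between -0.07 and 0.08 on all 11 arrays.

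**Figure D3:**
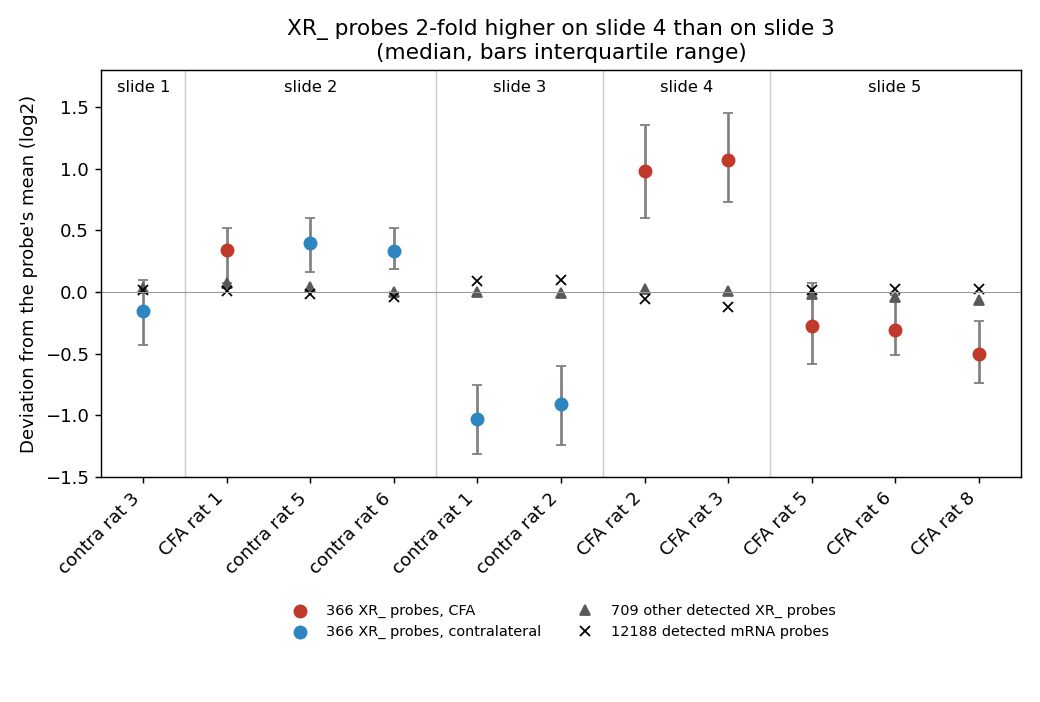
Median deviation from each probe's mean over the 11 arrays (vertical axis, log2) for the 366 XR_ probes at least 2-fold higher on slide 4 than on slide 3, with bars for the interquartile range, arrays ordered by slide, and triangles and crosses for the other detected XR_ and the mRNA probes. Slide 4 lies near 1, slide 3 near -1 and slide 5 below 0, and CFA rat 1 lies with the contralateral arrays of its slide (0.34 to 0.40).

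The pattern gave the rats opposite differences between their sides. The median CFA over contralateral difference of the 366 was 1.32 in rat 1, 1.87 in rat 2 and 1.21 in rat 3, whose CFA arrays lay on slides 2, 4 and 4 and whose contralateral arrays lay on slides 3, 3 and 1. It was -0.66 in rat 5 and -0.62 in rat 6, whose CFA arrays lay on slide 5 and whose contralateral arrays lay on slide 2. Over mRNA probes the same medians stayed between -0.16 and 0.06. The choice of the 366 used both arrays of rat 2, the contralateral array of rat 1 and the CFA array of rat 3. The positive medians of these rats are therefore partly set by the choice, which used no array of rats 5 and 6.

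The difference between slides 4 and 3 was also read at the single spots of a probe, which lie apart on the slide. In 333 of the 366 probes every spot was higher on slide 4 than on slide 3, and in 287 every spot was at least 2-fold higher. The 366 were chosen by the mean over these same spots, so this agreement is partly set by the choice. The range between the spots of a probe had a median of 0.283 on the log2 scale. The 366 were not the dimmest probes: 30 fell in the dim, 204 in the middle and 132 in the bright part by level. Their share fell along the accession numbers, from 44.7% of the detected probes of XR_005 through 38.6% of XR_006, 34.5% of XR_007 and 26.0% of XR_008 to 20.7% of XR_009. Levels differed little between these blocks of accessions, with medians of 5.61 to 6.18.

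Few transcripts of known function followed the profile. Over the 11 arrays, 48 of 12188 detected mRNA probes (0.394%) had a Pearson r above 0.9 with the mean profile of the 366. More mRNA probes ran opposite to it, with 152 at an r below -0.9. Of XR_ probes 230 (21.4%) had an r above 0.9 and 3 an r below -0.9, but the 230 include probes that define the profile. The mRNA probes most alike, named after their values were seen and among those with an SD over arrays above 0.5, were Sfta2 (r = 0.989), a surfactant-associated protein, Gapdhs (r = 0.981), the sperm form of glyceraldehyde-3-phosphate dehydrogenase, and Eapp (r = 0.975), an E2F-associated phosphoprotein. C1qb, a complement chain made by macrophages, also stood among the 12 most alike (r = 0.962). On slides 1 to 5 the mean level of the 8 macrophage markers was 10.22, 10.40, 10.45, 10.75 and 10.72. That of the 8 anterior pituitary markers was 8.99, 8.40, 7.52, 9.61 and 9.27, lowest on slide 3 and highest on slide 4 as the pattern was. Slides 2 and 5 went the other way, with these markers higher on slide 5 and the pattern probes higher on slide 2. Schwann cell markers (7) had 15.29 on slide 3 and 15.70 on slide 4, and 15.31 to 15.39 on the others. Median background was 17 to 26 units per array and the median processed signal 74.6 (CFA rat 2) to 117 (CFA rat 6). Their part in the slide pattern was not tested.

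CFA was then compared with the contralateral side by limma over all 24684 probes, with positive values meaning a higher level on the CFA side. The threshold is that of the study, an unadjusted p of 0.05 or less and a change of more than 2-fold. Of the 1702 XR_ probes, 25 (1.47%) passed it, against 498 of all probes (2.02%). Of these, 15 were higher on the CFA side (0.881%, against 1.15% of all probes) and 10 were lower (0.588%, against 0.863%). The XR_ share was not above the background in either direction. At an unadjusted p of 0.001 with the same fold, 1 XR_ probe passed, against 0.203% of all probes. No probe of any class reached an adjusted p of 0.05 in limma (0 XR_ probes, 0% of all probes), while 172 XR_ probes (10.1%) lay at or under 0.05 in unadjusted p, against 10.8% of all probes. Of the 172, 74 were higher (against 4.02% of all probes) and 98 lower (against 6.75%). The smallest adjusted p of an XR_ probe was 0.0924.

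The median log2 difference over XR_ probes was 0.07 against -0.04 over all probes. It was 0.50 over the 366 probes of the slide pattern, which share the arrays compared here, and 0.01 over the 709 other XR_ probes detected on every array. Without the 3 arrays of slide 5 the XR_ probes past the threshold numbered 166 (9.75%, 155 higher), against 2.32% of all probes. Of the 166, 143 were among the 366. The 366 were chosen by the difference between slides 4 and 3, which make up much of that comparison, so this overlap is largely set by the choice. Without the arrays of slide 3 the XR_ probes past the threshold numbered 14, and without those of slide 4 there were 9.

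**Figure D4:**
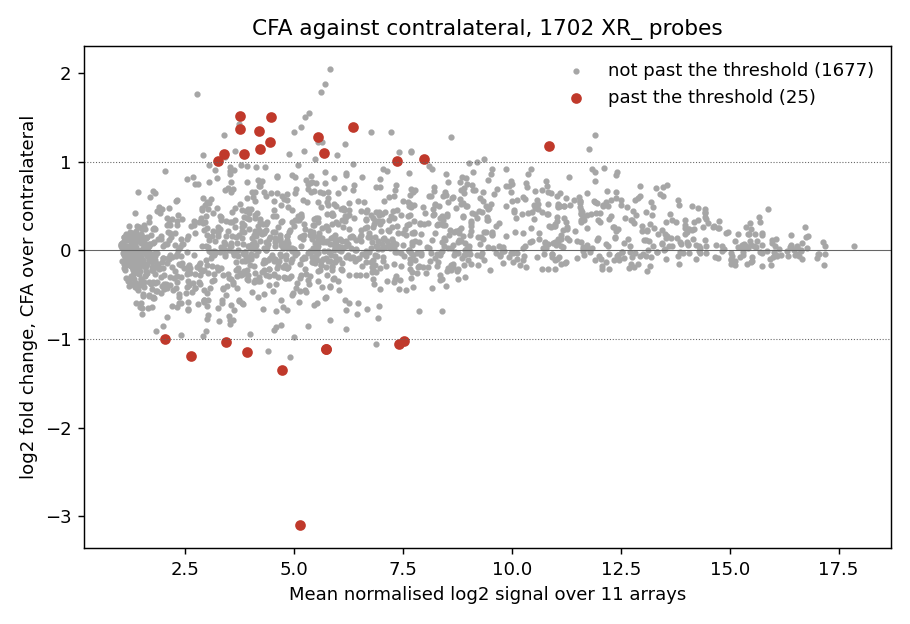
CFA over contralateral log2 fold change (vertical axis) against mean normalised log2 signal (horizontal axis) for the 1702 XR_ probes, with the 25 past the study's threshold in red and dotted lines at 2-fold. The points past the threshold lie at low and middle levels apart from XR_007411 (10.86), and the lowest point is XR_008902 (-3.10).

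The 25 were mostly dim. By level, 15 fell in the dim part, 9 in the middle part and 1 in the bright part, and 10 of the 25 were detected on every array. Within slide 2, which alone holds both sides, 14 of the 25 had the sign of the whole comparison and none (0) was over 2-fold apart. Since each probe has several spots, each difference could also be read at single spots. All spots had the same sign in 20 of the 25 probes, and all were past 2-fold in 5. Over all 1702 XR_ probes these counts were 865 and 24. The range between the spots' log2 differences had a median of 1.53 in the 25, against 0.383 over all XR_ probes.

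In 11 of the 15 XR_ probes that were higher on the CFA side, the lowest pair of the 11 arrays was contralateral rats 1 and 2, on slide 3. XR_008403 had the largest difference. Its contralateral levels were 1.32, 1.21, 3.44, 4.57 and 4.08 in rats 1, 2, 3, 5 and 6, and its CFA levels ran from 4.33 to 4.53 (median 4.45). Contralateral rats 1 and 2 were low, 2 of the contralateral arrays were not well above background, contralateral rat 5 was the highest array of all, and the groups overlapped. The difference was 1.52 ± 0.58 (SE; limma, unadjusted p = 0.024, adjusted p = 0.431), with 1.43 to 1.58 at its single spots. Without the arrays of slide 3 it was 0.41.

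XR_005913, the predicted transcript that the study's text names as higher, had contralateral levels of 0.99, 2.64, 4.96, 4.66 and 4.93 in rats 1, 2, 3, 5 and 6. Its CFA levels ran from 4.90 to 5.33 (median 5.19). It was well above background on every CFA array and on 3 contralateral arrays. Contralateral rats 3 and 6 lay within the CFA range, rat 5 just below it and rats 1 and 2 far below it, so the groups overlapped. The difference was 1.51 ± 0.65 (SE; limma, unadjusted p = 0.0418, adjusted p = 0.457), and the exact permutation test over all 462 splits of the arrays gave p = 0.00649 (two-sided). With each rat as a block it was 1.47 (limma, unadjusted p = 0.077), and without the arrays of slide 3 it was 0.30.

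The 3 spots of XR_005913 did not agree. The spots in rows 22 and 50 had differences of 1.81 and 2.00, with levels near 1 on contralateral rats 1 and 2 (0.99 and 1.35, and 0.99 on each). The spot in row 322 had a difference of -0.33, with 5.56 on contralateral rat 2 and 4.82 to 5.64 on the CFA arrays where it was not flagged as an outlier. It was flagged on contralateral rats 1 and 5 and on CFA rats 1 and 3, so the mean of the probe rests on different spots on different arrays.

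XR_007520 was the only probe past the threshold on the higher side whose groups did not overlap. Its contralateral levels were 3.00, 2.48, 4.14, 4.16 and 4.19, and its CFA levels ran from 4.38 to 5.44 (median 4.52). All 6 CFA arrays were thus above every contralateral array, although 2 contralateral arrays were not well above background. The difference was 1.14 ± 0.35 (SE; limma, unadjusted p = 0.00814, adjusted p = 0.345; exact permutation p = 0.00216, the smallest the 462 splits allow). Its spots gave 1.04 to 1.17, but they did not agree array by array, and at each single spot the groups overlapped. The spots in rows 114 and 116 read 2.01 to 2.55 on contralateral rats 1 and 2 and 4.93 to 5.47 on contralateral rats 5 and 6. The spot in row 342 read 4.68 on contralateral rat 1, and 1.69 and 2.58 on contralateral rats 5 and 6. Without the arrays of slide 3 the difference of the probe was 0.57.

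XR_007411 was the only bright one of the 25, detected on every array. The contralateral arrays gave 9.19, 10.06, 10.03, 10.53 and 11.29, and its CFA levels ran from 10.29 to 12.90 (median 11.36). CFA rat 3 was the highest and contralateral rat 1 the lowest, and the groups overlapped. The difference was 1.18 ± 0.47 (SE; limma, unadjusted p = 0.0281, adjusted p = 0.435), with 1.13 to 1.19 at its 3 spots. Within slide 2 CFA rat 1 was 0.62 below the mean of contralateral rats 5 and 6, and with slide as a block the difference was therefore -0.62.

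The profile of XR_007411 over the 11 arrays recurred in other XR_ probes. Of the 1074 others detected on every array, 18 (1.68%) had a Pearson r above 0.9 with it, against 0.115% of mRNA probes. The nearest were XR_006513 (r = 0.983) and XR_009256 (r = 0.977), and the latter passed the threshold itself with a difference of 1.02 ± 0.40 (SE; limma, adjusted p = 0.435), which was -0.49 with slide as a block. CFA rat 3 was the highest of the 11 arrays in 6 of the 15 probes that were higher on the CFA side.

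The other probes on the higher side had differences between 1.01 and 1.39. XR_009248 (1.39), XR_007924 (1.35) and XR_007117 (1.27) had their lowest levels on contralateral rats 1 and 2, and with each rat as a block none of these 3 stayed past the threshold (limma, unadjusted p = 0.0655, 0.0818 and 0.0895). The same held for XR_006267, XR_006115 and XR_007738 (limma with the block, unadjusted p = 0.0824, 0.0579 and 0.121). XR_007096 (1.37), XR_007100 (1.22), XR_006715 (1.08) and XR_006924 (1.01) stayed past the threshold in p with the block (limma, unadjusted p = 0.0263, 0.0346, 0.0402 and 0.0217). The blocked difference of XR_006924 was 0.94, under 2-fold. Several of these rest on values at background: on the CFA and the contralateral side, XR_006924 was well above background on 3 and 1 arrays, XR_006715 on 3 and 2, XR_007096 and XR_007924 on 6 and 3, and XR_006115 on 6 and 2.

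On the lower side the CFA array of slide 2 stood apart from the other CFA arrays. CFA rat 1 was the highest CFA array in 8 of the 10 probes. In 7 of the 10 the other 5 CFA arrays were all below every contralateral array, and contralateral rat 3 was the highest array in 8.

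XR_008902, the predicted transcript named as lower by the study's text, was well above background on all 5 contralateral arrays but on only 2 of the 6 CFA arrays. Its contralateral levels were 6.92, 6.82, 7.17, 6.66 and 6.58 in rats 1, 2, 3, 5 and 6. Its CFA levels were 6.75 in rat 1, 3.63 in rat 2, 5.29 in rat 3, 2.71 in rat 5, 1.95 in rat 6 and 2.02 in rat 8 (median 3.17). CFA rat 1 lay within the contralateral range and the other CFA arrays below it, so the groups overlapped. The fitted difference was -3.10 ± 0.80, which includes the 4 CFA arrays at background (SE; limma, unadjusted p = 0.00265, adjusted p = 0.270; exact permutation p = 0.0173, two-sided). With each rat as a block it was -2.76, and with scan day or slide as a block, which rest on the arrays of the first day and of slide 2, it was -0.08 and 0.13.

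The difference of XR_008902 lay in 2 of its 3 spots. In rows 481 and 514 the spots differed by -3.03 and -3.26, with levels of 6.10 to 7.09 on the contralateral arrays and on CFA rat 1 and of 1.75 to 4.99 on the others. The spot in row 427 differed by -0.07. It read 7.24 on CFA rat 1 and 6.80 on CFA rat 3 and was flagged as an outlier on the other 4 CFA arrays, so its value left the mean there. With flagged spots kept, the difference of the probe was -2.20.

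**Figure D5:**
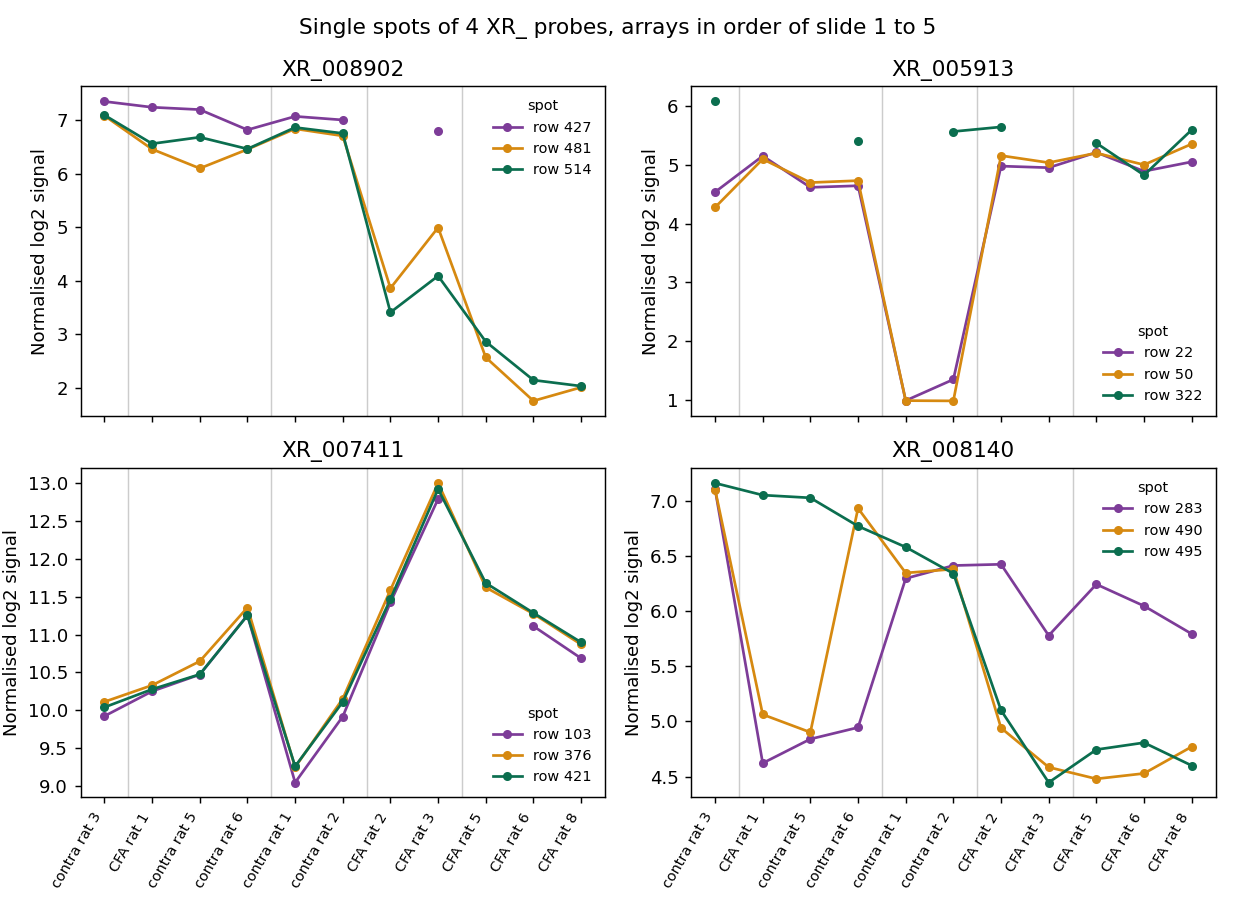
Normalised log2 signal (vertical axis) of the 3 single spots of XR_008902, XR_005913, XR_007411 and XR_008140 on the 11 arrays in order of slide (horizontal axis), with gaps where a spot was flagged as an outlier. The spots of XR_007411 run together, while in the other panels 1 spot departs from the others, as in row 427 of XR_008902 and row 322 of XR_005913.

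XR_008140 was the 1 XR_ probe past a p of 0.001 with more than 2-fold, and its groups did not overlap. The contralateral arrays gave 6.41, 6.38, 7.12, 5.59 and 6.21, and its CFA levels ran from 4.94 to 5.58 (median 5.14). Contralateral rat 5, at 5.59, was just above CFA rat 1, at 5.58. The difference was -1.12 ± 0.23 (SE; limma, unadjusted p = 0.000584, adjusted p = 0.220; exact permutation p = 0.00216), and -1.08 with each rat as a block. Its spots gave -0.10, -1.60 and -1.65, and without contralateral rat 3 the difference was -0.92, under 2-fold.

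XR_007026 had contralateral levels of 4.60, 4.42, 5.67, 4.36 and 3.63, and CFA levels from 3.03 to 3.90 (median 3.35). Its signal was well above background on 3 contralateral but only 2 CFA arrays, so the difference rests largely on values at background. Only contralateral rat 6 lay within the CFA range, and the difference was -1.15 ± 0.31 (SE; limma, unadjusted p = 0.00321, adjusted p = 0.278). XR_009031 differed by -1.11 ± 0.39, with contralateral levels of 5.72 to 7.37 and CFA levels of 3.98 to 5.99, and it was detected on every array. XR_009421, measured above background on 4 contralateral and 3 CFA arrays, differed by -1.04 and by -0.95 with the block, under 2-fold. XR_006644 differed by -1.02 and by -0.99 with the block.

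XR_009545 and XR_008529 differed by -1.35 and -1.05, and with each rat as a block their p lay above the threshold (limma, unadjusted p = 0.102 and 0.0601). In each of them CFA rat 1 was as high as the highest contralateral arrays or higher. For XR_009545 it was at 6.33, against 4.07 or less on the other CFA arrays and 4.22 to 6.33 on the contralateral arrays. XR_006836 and XR_006363 were not well above background on any of the 6 CFA arrays. XR_006836 was measured on 3 contralateral arrays and was at least 1.03-fold lower on the CFA side (limma, adjusted p = 0.339), and XR_006363 was measured on 1 contralateral array, so no fold is given for it.

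Groups without overlap were found for 11 XR_ probes (0.646%), against 1.19% of all probes. Of these, 4 were higher (against 0.527% of all probes) and 7 lower (against 0.664%). XR_007086 had the smallest p of the class. Its contralateral levels were 5.64, 5.56, 5.66, 6.12 and 6.10, and its CFA levels ran from 6.52 to 6.97 (median 6.84). Every CFA array was above every contralateral array, and the difference was 0.97 ± 0.14 (SE; limma, unadjusted p = 2.84e-05, adjusted p = 0.0924), just under 2-fold. Within slide 2 it was 0.41. Its spots gave 0.63, 0.66 and 1.73, and with the median in place of the mean over the spots the difference was 0.30 (unadjusted p = 0.184).

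XR_005518 and XR_008761 were the other probes on the higher side without overlap. XR_005518 had contralateral levels of 3.60 to 3.92 and CFA levels of 4.15 to 4.90, a difference of 0.76 ± 0.13 (SE; limma, adjusted p = 0.196), with -0.26 to 1.89 at its spots. XR_008761 had contralateral levels of 5.65 to 6.52 and CFA levels of 6.53 to 6.82, a difference of 0.68 ± 0.15 (SE; limma, adjusted p = 0.235), and of 0.71 within slide 2. Its spots gave 1.02, 1.20 and -0.19. Within slide 2 they differed most at the spot in row 256, with 3.52 and 3.99 on contralateral rats 5 and 6 and 5.27 on CFA rat 1. On the lower side, XR_005898 had contralateral levels of 5.84 to 6.60 and CFA levels of 4.78 to 5.72, a difference of -0.78 ± 0.21 (SE; limma, adjusted p = 0.275), with -1.32 to 0.02 at its spots. XR_005744 differed by -0.28 ± 0.09. XR_005726 was not well above background on any array, and XR_009149 on none of the CFA arrays, so no fold is given for these.

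The spot position bore on dim XR_ probes. Each spot's CFA over contralateral difference was set against the mean of its probe, and the arrays' rows were divided into 4 equal bands. In the dim part the median deviation was 0.27 in the first band and -0.16 in the last, in the middle part 0.12 and -0.12, and in the bright part 0.01 and 0.06. A trend over rows removed from each array left 18 XR_ probes past the threshold, 15 of them among the 25.

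Among non-coding RNA genes with established names, 4 of the 64 listed were measured, none of them under an XR_ accession, and none (0) passed the threshold. H19, an imprinted RNA that also gives rise to a miRNA, had a level of 13.35 and a difference of -0.73 ± 0.46 (SE; limma, unadjusted p = 0.139, adjusted p = 0.550). Gas5, a host gene of small nucleolar RNAs, differed by 0.03 ± 0.11.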

How the data were processed

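The deposited scanner files hold the signal intensity of each spot, which the authors obtained with Agilent Feature Extraction 11.0.1.1 (background subtracted and detrended by the software). The authors also deposited a table of intensities that they quantile normalised with limma, used here as an alternative. Control spots (1417) were dropped, outlier-flagged spots (1.38%) were set to missing, log2 processed signals were quantile normalised, and a probe's spots were averaged. CFA (n = 6) and contralateral (n = 5) arrays were compared with limma 3.58.1 in R 4.3.3, with Benjamini-Hochberg adjustment over 24684 probes, and single probes with a two-sided exact permutation test (462 splits). Each array is 1 ganglion of 1 rat, and the number of arrays limits the precision. Missing values remained in 5 XR_ probes, which were fitted on the other arrays. The normexp and uncorrected alternatives used median spot signals, since the files used here give no mean signal.

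Same-numbered arrays were taken as the sides of the same rat, which was read from the numbers in the sample titles. The study took its control ganglia from the injected rats, so the sides are pairs by design. The deviations of a rat's sides from their group means correlated at -0.0495, -0.0833, -0.0317, -0.00933 and 0.133 over probes. Rat 8 has 1 side and adds nothing to the blocked fit.

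Named XR_ probes were those named in the study's text, the 8 brightest, up to 10 past the threshold and up to 5 without overlap per direction, and the 4 with the largest and smallest spread. The remaining probes past the threshold are also named. Members, lists and tests were chosen with earlier results of these data known. The fit was tested on simulated data. Figures were drawn with matplotlib 3.10.9.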

Additional observations from a re-analysis of the deposited data

Results flagged for a closer look

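Among 96 groups of arrays of the named XR_ probes, 8 (8.33%) held an array that stood far from the rest of its group. Many of these probes were named for their spread or difference in these same data, so no rate expected by chance applies. All 8 were CFA arrays. CFA rat 1 was high for XR_008529 (8.51, next 6.89) and XR_009545 (6.33, next 4.07). CFA rat 3 was high for XR_007096 (5.45, next 4.38) and XR_008750 (9.76, next 6.70). CFA rat 2 was high for XR_006836 (2.89, next 2.12), a probe not well above background there, and low for XR_005994 (16.90, next 17.02). CFA rat 5 was low for XR_005898 (4.78, next 5.39), and CFA rat 8 was low for XR_006207 (16.83, next 17.03).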

How the results depend on the processing

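The count of XR_ probes past the study's threshold depended on how dim signals were treated and on which slides entered. It was 25, and became 1 with normexp background correction, 2 with no background correction, 7 with a floor on dim values, 7 with slide as a random block and 40 with slide as a block (0 shared with the 25). Leaving out the arrays of slide 3, 4 or 5, chosen after seeing the data, gave 14, 9 and 166. Leaving out 1 array gave 11 (without contralateral rat 1 or CFA rat 3) to 57 (without contralateral rat 6), and counts over 1.5 times away also came without contralateral rat 2 (14), contralateral rat 5 (50), CFA rat 1 (46) and CFA rat 5 (12). The replicate block by rat gave 24, with 13 shared, and scan day as a block gave 25, with 1 shared. The remaining settings gave 18 to 35. At an adjusted p of 0.05 the count of 0 became 2 under the slide block and 1 under the block by scan day, and leaving out 1 array gave 0 to 8 (8 without CFA rat 1).

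The median XR_ level of 5.80 was 7.23 with normexp, 6.53 with no background correction, 7.91 after a filter on dim probes and -5.13 relative to each array's 75th percentile, which is another scale. The median spread of 0.408 was 0.145 with normexp and 0.195 with no background correction. The median log2 difference ran from -0.01 without slide 3 or slide 4 to 0.15 without slide 5. The number of XR_ probes at least 2-fold higher on slide 4 than on slide 3 stayed between 268 (normexp) and 412 (75th percentile scaling), and between 354 and 386 without 1 array of either slide.

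With slide as a block, which rests on the 3 arrays of slide 2, the sign turned for 11 of the 25 probes: XR_006644 (0.48), XR_006715 (-0.61), XR_006924 (-0.15), XR_007096 (-0.026), XR_007100 (-0.60), XR_007411 (-0.62), XR_008529 (0.20), XR_008902 (0.13), XR_009256 (-0.49), XR_009421 (0.41) and XR_009545 (0.39). With scan day as a block it turned for XR_006644 (0.082), XR_008529 (0.54) and XR_009545 (0.86). Among the 4 probes with the largest spread, slide as a block gave -1.81 for XR_005441, -2.63 for XR_008474 and -0.75 for XR_008750, and scan day as a block gave -0.70 for XR_005441 and -0.79 for XR_008474. The cause was not tested. No other alternative turned a sign among these 36 differences, and with the floor that of XR_005726, at background on every array, was 0. Of the 25 probes, 15 lay in the dim part by level, where signal over background limits the values.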
